A study of Mus musculus with 30 samples.

Results

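The genes described here are 149 array probes, 1 for each of 149 genes, whose level stood highest in the brain cortex and cerebellum among 15 adult tissues. They were chosen by a rule on the deposited value table, in which each tissue is the mean of its 2 arrays. The gap of a probe was the lower of brain_cortex and cerebellum minus the highest of the other 13 tissues. The 150 probes with the largest gap were taken from the 5622 of 25030 probes that carry a symbol in the study's probe lists, and 1 of them was then left out because the rule names it. Because these values chose the members, every difference between brain and other tissues below is a description and has no test.

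The samples were brain_cortex, cerebellum, eyes, lung, liver, heart, kidney, bladder, muscle, skin, small_intestine, stomach, large_intestine, fat and bone of untreated male C57BL/6 mice, given as 28 weeks old by the labels, with 2 arrays for each tissue. On each 2-colour Agilent array the RNA of the tissue was labelled with Cy3. Cy5 carried the same reference on all 30 arrays, a commercial pool made from 11 cultured lines of mouse cells, to which RNA of embryonic stem cells of strain 129 was added. Values are log2(Cy3/Cy5) after loess normalisation unless another scale is named, so a value above 0 is a tissue level above that of the reference. The 2 arrays of most tissues came from different animals, whereas the study's own description gives bone and fat a single replication. The study's methods give another age than the labels. The number of arrays limits the precision of every value.

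Neurons signal through voltage-gated channels, receptors and vesicle release. Their long processes depend on motor proteins, microtubule binding proteins and adhesion molecules, and many of the genes involved are kept silent outside the nervous system. The eye is a mixed organ in which the retina, itself an outgrowth of the brain, is a thin layer beside lens, muscle, pigmented and connective tissue. In whole tissues, fewer cells of a type and less RNA per cell cannot be told apart.

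Defining markers of cerebellum and eyes were found in the tissues they are known for. En1, a transcription factor of the hindbrain, was at -3.18 in cortex and 0.68 in cerebellum. In eyes, 7 of 8 measured probes for photoreceptor and retina markers and 6 of 7 lens probes were highest of all tissues. None of the members belonged to the marker lists of cortical or cerebellar neurons, glia, photoreceptors, lens, muscle, blood or pigment cells. Nothing is read from this, since few brain markers were measured: 1 probe for 12 cortical neuron genes, 3 for 18 cerebellar neuron genes and 4 for 13 astrocyte genes. The rule also leaves out genes that are highest outside brain or high in only 1 brain tissue. Ptprn alone was on a marker list, that of enteric, peripheral neuron or endocrine cells.

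For 135 of the 149, all 4 brain arrays lay above all 26 arrays of the other tissues, which held for 7.3% of all probes tested. For 146 the 4 brain arrays lay above both arrays of eyes, against 28.8% of all probes tested. The rule chose the members on this contrast, so nothing is read from either count. The median log2 ratio of the members was 2.28 and 2.17 on the cortex arrays and 2.15 and 1.97 on the cerebellum arrays. On the eyes arrays it was 0.48 and 0.84. The 12 remaining tissues had medians between -0.19 in liver and 0.01 in fat. These medians near 0 do not mean equal amounts in tissue and reference, since many members were near background in both channels there. A share of 94% of the members was well above background on both cortex arrays and 98% on both cerebellum arrays, against 64% and 72.1% of all probes in the table. In liver the share was 37.6%, below the 57% of all probes.

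**Figure D1:**
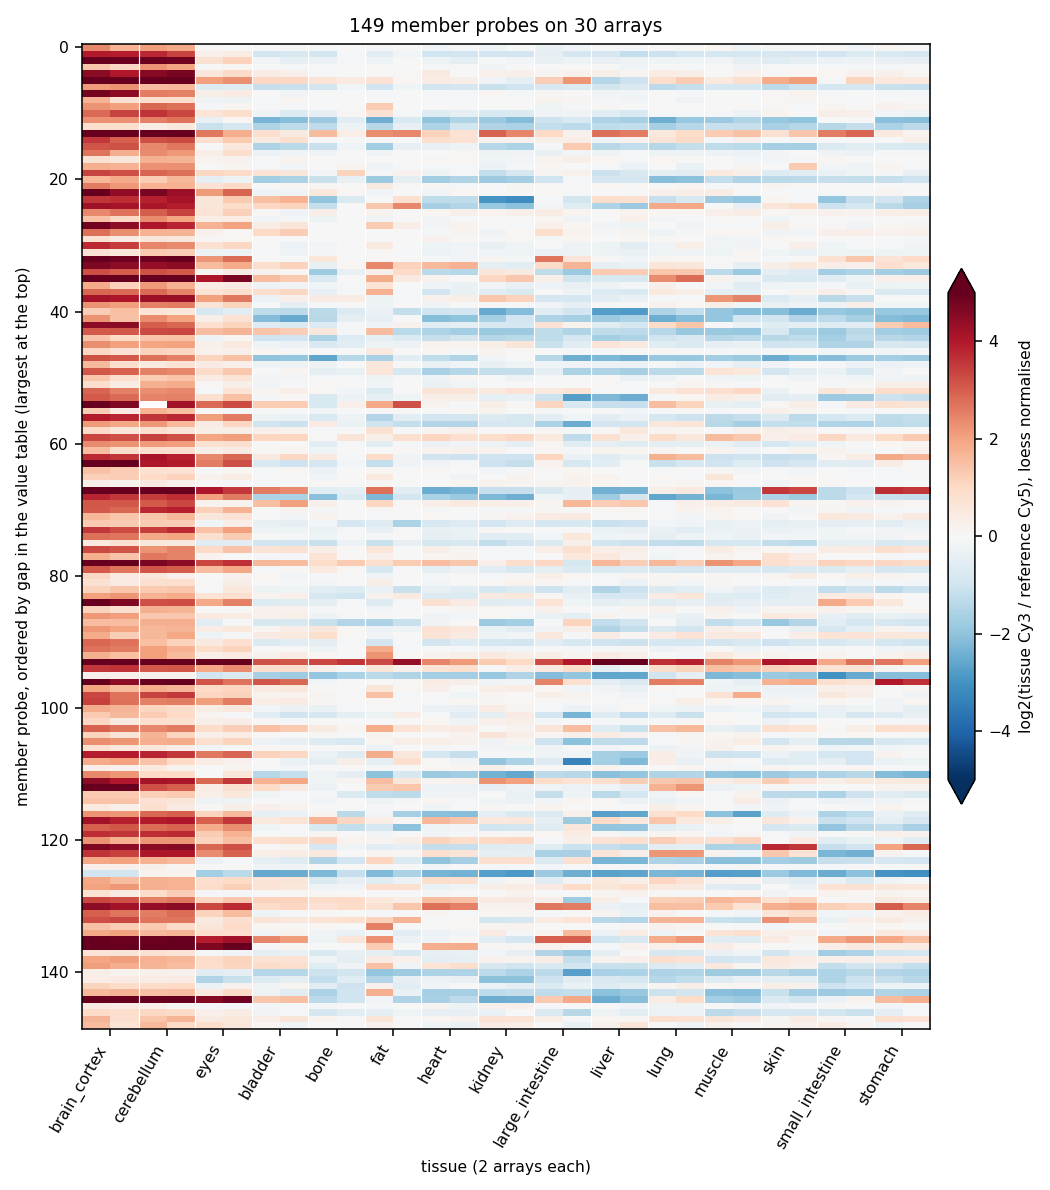
Log2(Cy3/Cy5) of the 149 members (rows, largest gap at the top) on 30 arrays (columns, 2 per tissue), with red above and blue below the reference and the colour scale cut off at both ends. The 4 brain columns are the reddest block, the 2 eyes columns are paler, and most other columns are near white or blue. The white cell in the cerebellum block is the value of Tcaf1 that an outlier mark removed.

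The name under which these genes were grouped says that they are low in the eye. On the ratio, the mean of eyes lay below the lower brain mean for every member. The rule chose members by this on the deposited value table, so it does not bear out the name. The lower brain mean exceeded the mean of eyes by a median of 1.11 on the log2 scale, which is 2.16-fold, with quartiles of 1.70-fold and 3.22-fold. Among the 13 other tissues, however, the eye was not low. Eyes had the highest mean of the 13 for 88 members (59.1%), and the mean of eyes ranked 2 or 3 for 32 more and between 8 and 13 for only 13. Of the 20879 other probes tested, 13.9% had their highest mean outside brain in eyes. Of 762 probes without a symbol that had a gap at least as large as the smallest member gap, 56% did. The members are therefore described here as genes enriched in both brain tissues, for most of which the eye was the next tissue.

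In the 12 tissues other than eyes the median log2 ratio lay 1.97 (bladder) to 2.47 (liver) below the lower brain tissue. These distances are limited by the background, since 59 members in bladder and 69 in liver were not well above background on either array, and no order of the tissues is read from them. Over all probes tested these medians lay between 0.09 and 0.16 above the lower brain tissue. Eyes was also the tissue that most often came alone after brain. In 23 members it was the only tissue outside brain with signal well above background on both arrays, while bladder and skin were so in 1 member each. Of all tissues, eyes had the largest share of table probes well above background on both arrays, 76.1%, beside 88.6% of the members. No share over all probes is at hand for the count of 23, so nothing is read from it. A further 15 members were well above background in no tissue outside brain, and 49 were so in all 13 (32.9%, against 47.7% of all probes in the table).

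**Figure D2:**
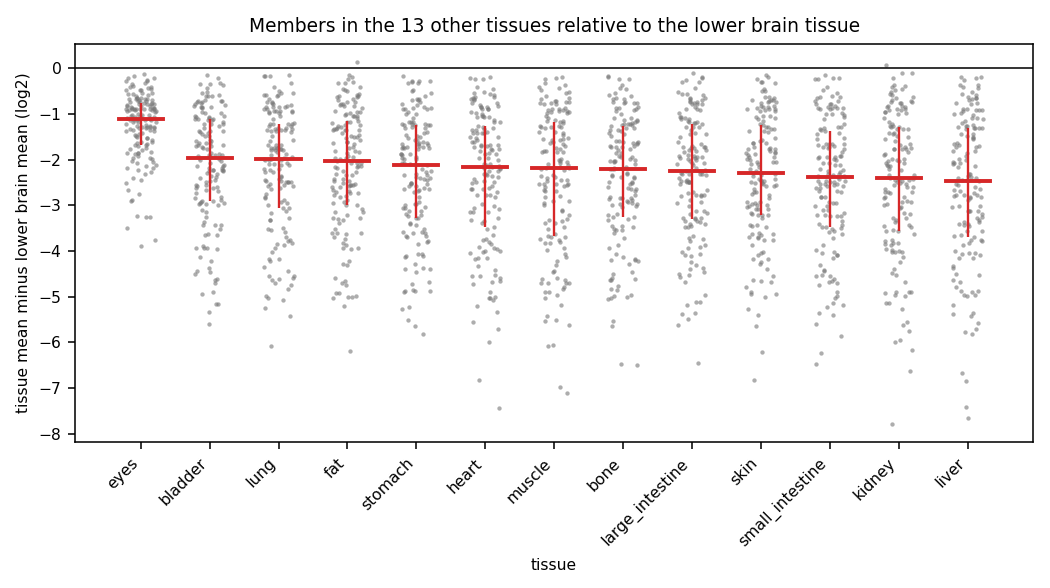
Mean of each tissue minus the lower of the cortex and cerebellum means (log2) for the 149 members, with the median as a thick line, the quartiles as a thin line and 1 point per member. Eyes has a median of -1.11, and the medians of the other 12 tissues, where many members were near background, run from -1.97 to -2.47.

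The 2 arrays of eyes did not stand at the same height. For 129 of 149 members the second eye array was higher than the first, by a median of 0.24 on the log2 scale, whereas the median over all probes tested was 0.02. With replicate 2 of every tissue left out, eyes was the highest other tissue for 78 members. With replicate 1 left out it was so for 92, and 64 members had eyes highest in both. Fat was also uneven. The first fat array exceeded the second by at least 1 on the log2 scale for 23 members and the second exceeded the first for 11. Fat was the highest other tissue for 21 members on replicate 1 and for 2 on replicate 2.

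The largest gap in the deposited table was that of Neu4, a sialidase, at 1.195 on the log10 scale, nominally 15.7-fold, against 3.83-fold on loess ratios. Both are set against values in tissues where Neu4 was not well above background on both arrays. Neu4 was at 2.39 and 1.73 in cortex, 2.08 and 1.89 in cerebellum, 0.07 and -0.01 in eyes, and between -0.32 and 0.12 on the 24 arrays of the other 12 tissues. Brain arrays did not overlap with any other array. Its spot was not well above background on either eyes array, so only a bound could be given there, and brain was at least 3.56-fold higher than eyes on the log2 Cy3 level after loess and quantile normalisation of array averages.

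Brinp3 (B830045N13Rik in the probe lists), a neural protein induced by bone morphogenetic protein and retinoic acid, was at 3.96 and 3.94 in cortex, 3.79 and 3.37 in cerebellum and 0.26 and 0.37 in eyes. The lower brain mean was 9.62-fold above eyes, the highest other tissue. The long noncoding RNA 1700057H15Rik was at 4.50 and 4.01 in cortex, 4.56 and 4.75 in cerebellum and 0.55 and 0.96 in eyes, a difference of 11.3-fold. For both genes the arrays of brain and eyes were far apart. Fam131b was 4.66-fold above eyes, the one other tissue with signal well above background on both arrays. The gene that RefSeq now calls Pagr1a (2900092E17Rik) was 9.43-fold above eyes. The noncoding RNA 4831407H17Rik was at 1.37 and 1.04 in cortex and 2.24 and 1.96 in cerebellum, was well above background on no array outside brain, and was at least 1.91-fold lower there. Ms4a19 (1700025F22Rik), of the MS4A membrane protein family, was at 2.25 and 2.05 in cortex and 2.88 and 2.74 in cerebellum. Its highest other array was fat 1 at 1.25, while fat 2 stood at 0.02.

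Mir9-3hg (AI854517), the noncoding host transcript of the miR-9-3 hairpin, had the largest difference from eyes of all members on the ratio, and the second place after Tmem88b on the Cy3 level. It was at 5.20 and 4.96 in cortex, 4.90 and 4.82 in cerebellum and 0.77 and 1.17 in eyes, and its highest value on the 24 arrays of the other 12 tissues was -0.04. The lower brain mean was 14.8-fold above eyes. The gene spans chr7:79500026-79534403 (GRCm38.p6, plus strand), and the hairpin lies inside it at chr7:79505264-79505353 on the same strand. Aatk, a kinase of neurons, also encloses a microRNA hairpin on its own strand, that of miR-338, at chr11:120014765-120014862 within chr11:120007311-120047183. The arrays measured the host transcripts and not the microRNAs. The mature forms are shown to identify the hairpins that these host genes enclose, as RefSeq gives them (GRCm38.p6), 5′ to 3′ with the seed (bases 2 to 8) in capitals.
mmu-miR-9-5p: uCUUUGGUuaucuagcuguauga
mmu-miR-9-3p: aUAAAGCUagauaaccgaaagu
mmu-miR-338-3p: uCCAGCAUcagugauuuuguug
mmu-miR-338-5p: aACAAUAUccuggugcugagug
The 4 seeds differ from each other. Aatk was detected in more tissues than Mir9-3hg, for which 2 tissues outside brain had clear signal on each array. Aatk was at 6.51 and 6.34 in cortex, 6.44 and 6.47 in cerebellum, 5.16 and 5.55 in eyes and 4.967 and 4.998 in liver, well above background in all 13 tissues outside brain. The lower brain mean of Aatk was 2.1-fold above eyes on the ratio and 3.8-fold on the Cy3 level.

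Of the 149 members, 38 were on 8 lists of nervous system roles. The lists held few genes with a named probe, so they were sampled and not covered. Ion channels and pumps gave 3 members. Cacna1e, a subunit of R-type calcium channels, was at 1.75 and 0.71 in cortex and 0.86 and 0.89 in cerebellum, and was not well above background on any array of another tissue, at least 1.51-fold below brain. Asic1 (Accn2), a proton-gated sodium channel, was at 2.28 and 2.27 in cortex and 2.52 and 2.71 in cerebellum against -0.36 and 0.09 in eyes. Dpp10, an auxiliary subunit of A-type potassium channels, was 5.42-fold above eyes on the ratio and 10.3-fold on the Cy3 level. Of the 15 probes tested on that list, 2 were called higher in cortex than in cerebellum and none was called higher in cerebellum, and no member was among them. Over all 21026 probes tested, 3.2% were called towards cortex and 2.27% towards cerebellum by limma (adjusted p below 0.05 and an absolute log2 difference of 1 or more), and over the 8 lists the counts were 17 and 6 of 197 probes.

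The receptors for transmitters and modulators gave 4 members. Oprk1, the kappa opioid receptor, was at 2.77 and 2.32 in cortex and 1.74 and 1.70 in cerebellum. It was not well above background on either eyes array, where brain was at least 2.63-fold higher, and its highest other array was bladder 2 at 1.23. Adra2c, an adrenergic receptor, was 1.72-fold above eyes. Gpr45, an orphan receptor, was 1.85-fold above eyes. Htr5b, a serotonin receptor, was at 1.63 and 0.84 in cortex, 0.50 and 0.71 in cerebellum and 0.40 and 0.25 in eyes. Its first fat array, at 0.57, lay above the lower cerebellum array. Of the 23 receptor probes tested, 2 were called higher in cortex and none in cerebellum.

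Among genes of vesicle release and secretory granules, Ptprn, a membrane protein of dense-core granules, was at 3.16 and 3.20 in cortex, 2.40 and 2.64 in cerebellum and -0.04 and 0.52 in eyes. Its highest array outside brain was large_intestine 2 at 1.30, and large_intestine was its highest other tissue. Syt2, a calcium sensor of fast transmitter release, and Praf2 were the other 2 of this list. Of its 25 probes tested, 1 was called higher in cortex and 2 in cerebellum.

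Adhesion, guidance and matrix genes gave 12 members among 27 measured probes. The lists were chosen with earlier results of these data known, so no order of the lists is read from such counts. Adam22, a receptor of the secreted epilepsy protein Lgi1, was at 3.55 and 2.98 in cortex, 3.24 and 3.29 in cerebellum and 0.83 and 1.31 in eyes, 4.57-fold below the lower brain mean. Adam23, which also binds Lgi1, was 4.02-fold above bladder, its highest other tissue, and 6.38-fold above eyes. Tmeff2 was 9.62-fold above eyes and 4.30-fold above lung, its highest other tissue. Cdh7 and Cdh20 are type II cadherins, and both kept eyes as the next tissue. Cdh7 was 2.86-fold above eyes. Cdh20, at 5.97 and 5.32 in cortex and 6.25 and 6.14 in cerebellum, was only 1.69-fold above eyes, where it stood at 4.66 and 5.12, while the median of the 24 arrays of the other 12 tissues was 0.15. Lypd1, which binds nicotinic receptors, was 4.12-fold above eyes, Xkr4 1.38-fold and Cntnap5a 1.45-fold. Lrp11 and Lrrn2 were 2.56-fold and 6.72-fold above eyes on the ratio. Cntn2, a contactin of axons, was 1.95-fold above eyes and well above background in 2 tissues outside brain, eyes among them. Erbb4, a neuregulin receptor, was not well above background on both arrays of any tissue, and its gap was 2.36-fold in the value table and 1.08-fold on loess ratios, with brain arrays between 0.19 and 0.45. Of the 25 probes tested, 1 was called higher in cortex and none in cerebellum.

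Cytoskeletal members were Kif1a, a motor that carries synaptic vesicle precursors, Kifap3, a partner of kinesin-2, and Map2 (Mtap2), a microtubule protein of dendrites. Kif1a was at 5.51 and 5.42 in cortex, 5.27 and 5.45 in cerebellum and 4.58 and 4.85 in eyes, 1.57-fold below the lower brain mean on the ratio and 2.81-fold on the Cy3 level, and its highest other array was large_intestine 2 at 1.88. Map2 and Kifap3 were 2.50-fold and 2.58-fold above eyes. Elavl3 (2600009P04Rik), an RNA binding protein of neurons, was 3.14-fold above eyes on the ratio, 7.96-fold on the Cy3 level, and well above background in no other tissue outside brain. Stau2, which takes part in dendritic RNA transport, was 2.47-fold above eyes, and Adarb1, an RNA editing enzyme, 1.77-fold. Signalling members included Sntg1, Arhgef4, Inpp4a, Adcy3, a neuronal adenylyl cyclase, and Plcl1. Adcy3 was 4.06-fold above eyes but 1.65-fold above skin. The metabolic members were Ephx4 (Abhd7), an epoxide hydrolase, Chst10, a sulfotransferase of the HNK-1 glycan, Acot7, an acyl-CoA thioesterase abundant in brain, and Abhd8. Towards cortex and cerebellum respectively, 5 and 0 of 33 probes were called among the signalling genes, 2 and 0 of 15 among the cytoskeletal genes, 1 and 0 of 33 among the metabolic genes and 3 and 4 of 28 among the RNA binding and transcription genes. Ephx4 and Syt2 were the only members among these calls of the 8 lists. Over all probes tested, 3.2% were called towards cortex and 2.27% towards cerebellum, and no difference from these shares is read from lists this short.

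On the ratio, the 4 members furthest below brain in eyes were Mir9-3hg, Tmem88b (A230069A22Rik), 1700057H15Rik and Brinp3. On the Cy3 level (normalised as for the bound of Neu4), an alternative chosen after seeing the data, Tmem88b came first at 25-fold, before Mir9-3hg at 16.5-fold, Lrrn2 at 13.8-fold and Pagr1a at 13.5-fold, and Brinp3 was at 8.12-fold. Tmem88b was at 6.06 and 5.89 in cortex, 5.97 and 5.99 in cerebellum and 2.63 and 1.80 in eyes, 13.5-fold below the lower brain mean, and reached 2.94 on kidney array 1. The 4 smallest differences on the ratio were those of 4933402D24Rik, A330041K01, Cadm2 (2900078E11Rik) and 6720483E21Rik. Apart from Cadm2 these were not well above background on both eyes arrays, so no fold is given. On the ratio Cadm2 was 1.16-fold above eyes, and on the Cy3 level it had the smallest difference of all members at 1.02-fold. Cadm2, a synaptic adhesion protein, was at 3.41 and 2.74 in cortex, 2.53 and 2.54 in cerebellum and 2.08 and 2.57 in eyes, so brain and eyes overlapped, and its highest array among the other 12 tissues was 0.41.

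Cortex and cerebellum were compared with a test, since the rule fixes no direction between them. The rule did use these arrays, as it required the lower of both tissues to be high, so the share of members called is a description. Of 146 members tested, 11 were called by limma, which required an adjusted p below 0.05 and an absolute difference of 1 or more on the log2 scale, 8 higher in cortex and 3 higher in cerebellum. That is 7.53% of the members tested, beside 5.46% of all 21026 probes tested (3.2% towards cortex and 2.27% towards cerebellum). Without the limit on the difference 28 members passed, 16 towards cortex and 12 towards cerebellum, beside 8.73% of all probes (5.03% and 3.7%). The median difference, cortex minus cerebellum, was 0.07 among the members and 0.03 over all probes. Arrays of cortex and cerebellum did not overlap in 62.1% of the members and 58.9% of all probes. The other 3 members, Erbb4, 4933402D24Rik and 4930441O14Rik (Zfp85os), were not well above background on both arrays of any tissue and were not tested.

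A830018L16Rik had the largest difference towards cortex on the ratio, whereas on the Cy3 level alone Vxn differed more, by 4.46 against 2.65 on the log2 scale. It was at 6.02 and 5.59 in cortex, 3.21 and 2.99 in cerebellum and 0.38 and 0.80 in eyes. The difference was 2.71 ± 0.20 (SE), or 6.52-fold, with an adjusted p of 1.86e-08 by limma. Vxn (3110035E14Rik), a regulator of neurogenesis, was at 4.80 and 4.46 in cortex and 2.55 and 2.51 in cerebellum, a difference of 2.10 ± 0.12 with an adjusted p of 6.59e-10 by limma. The arrays of cortex and cerebellum were clearly apart for both genes. AI851790, Sertm1 (6030405A18Rik) and Ephx4 were 3.06-fold, 2.98-fold and 2.94-fold higher in cortex. The remaining 3 were 2810455O05Rik, Ccsap (1700054N08Rik), a protein of centrioles and the spindle, and Ica1l, at 2.77-fold, 2.48-fold and 2.25-fold. All 8 also differed in the same direction on the slide that held cortex array 1 and both cerebellum arrays.

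Towards cerebellum the 3 called members differed by little more than the limit. AF529169 was at 0.89 and 0.37 in cortex and 1.79 and 1.86 in cerebellum, and was well above background on 1 of the 2 cortex arrays. Syt2 was at 0.75 and 0.57 in cortex and 1.77 and 1.71 in cerebellum, a difference of -1.09 ± 0.12 (SE) with an adjusted p of 2.45e-06 by limma. Mybl1, the transcription factor A-Myb, was at -0.95 and -0.91 in cortex and 0.17 and 0.17 in cerebellum, a difference of -1.098 ± 0.278 with an adjusted p of 0.0154 by limma. Cortex and cerebellum did not overlap in any of them. Mybl1 lost its call when any one of the 4 arrays was left out, at differences of -1.077 to -1.118. Each such fit leaves 1 array in that tissue, so its spread comes only from the tissues that keep 2 arrays. Syt2 and AF529169 lost theirs without cortex array 2, where no member was called towards cerebellum and 10 were called towards cortex. Without cortex array 1 the count towards cerebellum was 6, and without cerebellum array 2 it was 5. Within the slide that held both tissues the differences were -0.999 for Syt2, -1.12 for Mybl1 and -0.94 for AF529169, so only that of Mybl1 reached the limit. Mybl1 and Vxn lie next to each other among the members, 40264 bases apart on chromosome 1, and were called in opposite directions.

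The calls depended on the signals used. On the scanner's processed signals, centred on the median without loess, 1 member was called towards cortex and 2 towards cerebellum, and 1 of the 11 calls, that of A830018L16Rik, was kept. The differences of 8 of the other members stayed above the limit in size there, at 1.01 in Ica1l and -2.004 in AF529169, the smallest and the largest, but did not pass the adjusted p, while Vxn and Syt2 fell under it. AF529169 was well above background on only 1 cortex array, so its difference is not exact. On the Cy3 level alone that difference was -0.82. On the deposited value table the counts were 2 and 3, with 3 of the 11 kept, and no call turned its direction. With the 4 cortex and cerebellum arrays alone, an alternative chosen after seeing the data, the same values gave 6 and 2, with 7 kept. With slide as a fixed block 10 members were called towards cortex and 1 towards cerebellum, and 9 of the 11 calls were kept.

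**Figure D3:**
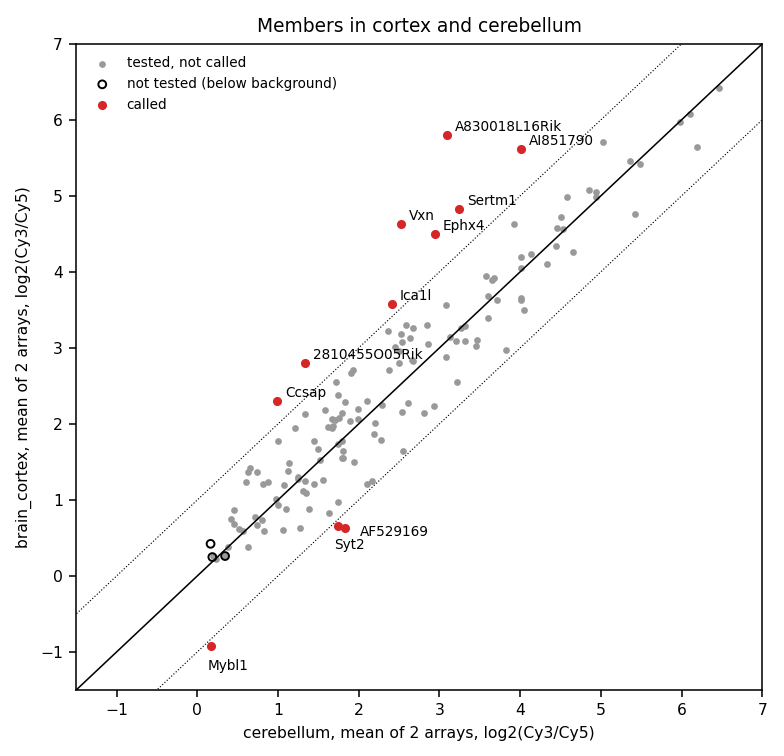
Mean of the 2 cortex arrays against the mean of the 2 cerebellum arrays (log2(Cy3/Cy5)) for each member, with the line of equality and dotted lines at a difference of 1. The 11 called members are red and named, 8 above and 3 below the line.

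**Figure D4:**
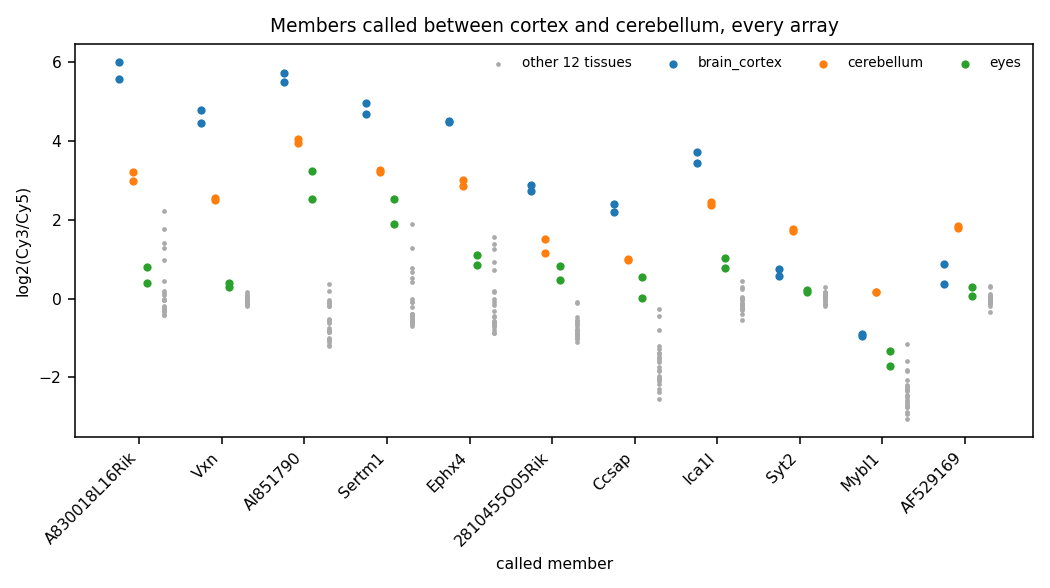
Log2(Cy3/Cy5) on every array for the 11 called members, ordered by the difference between cortex and cerebellum, with brain and eyes in colour and the 24 arrays of the other 12 tissues in grey. In A830018L16Rik, Ephx4, AF529169, Syt2 and Mybl1 the highest grey point passes both eyes points, and in all 11 members every brain array is above every other array.

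The reference channel held a pattern of its own. All arrays carried the same reference, so Cy5 should not depend on the tissue. Of the 149 members, 13 had a Cy5 level at least 1 higher on the log2 scale (mean of cortex and cerebellum, quantile normalised) than the mean of the other 13 tissues, which is 8.72% beside 1.82% of all probes tested, and none was lower by that much. The Cy5 level was higher in brain by any amount for 81.9% of the members and 41.1% of all probes. The clearest was 6330403K07Rik, with Cy5 levels of 11.90 and 12.13 on the cortex arrays and 11.38 and 11.40 on the cerebellum arrays, against 8.19 to 9.64 on the 26 others. Elavl3 was at 8.70 and 8.70 in cortex and 9.03 and 9.32 in cerebellum, against 6.77 to 7.28. For Vxn the Cy5 level was 9.34 and 9.39 on the cortex arrays and 6.80 and 6.58 on the cerebellum arrays, which lay within the 6.20 to 7.18 of the other tissues. In each of these the Cy5 level was high where the Cy3 level was high.

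The ratios of such members understate the difference in Cy3. For Vxn the Cy3 level alone, quantile normalised, was 22-fold higher in cortex than in cerebellum, against 4.28-fold by the ratio. On the scanner's processed signals the ratio gave a difference of 0.02 on the log2 scale, and Vxn was not called. For Syt2 the processed signals gave -0.13 and the Cy3 level alone -1.18. The cause of the Cy5 values was not tested. Otherwise the reference was near background for many members. On fewer than 15 of the 30 arrays was Cy5 well above background for 56 members (37.6%), against 34.5% of all probes in the table.

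**Figure D5:**
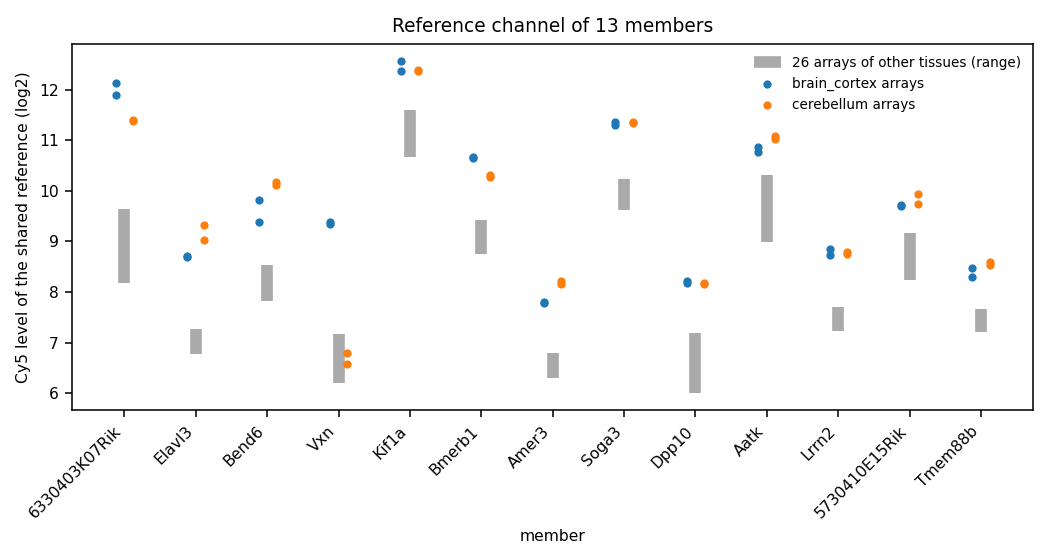
Cy5 level of the shared reference (log2, quantile normalised) for the 13 members with the largest rise on brain arrays. Each of the 4 brain arrays is a point and the grey bar spans the 26 arrays of the other tissues. Points lie above the bar in all 13 except for the cerebellum arrays of Vxn.

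By RefSeq, 112 members were protein coding, 25 were long noncoding RNAs and 12 had no single match. The noncoding members included Cerox1 (2810468N07Rik), Snhg11 (A930034L06Rik) and transcripts named as opposite-strand RNAs, Kcnmb4os2 and Smc2os. Long noncoding members were well above background in at most 3 tissues outside brain in 17 of 25, and protein-coding members in 36 of 112. Signal in eyes was well above background on both arrays in 18 of 25 and 105 of 112. The noncoding members were also lower in brain, with a median log2 ratio in the lower brain tissue of 1.65 against 2.00. Shares over all probes of each class are not at hand, so no difference between the classes is read from these counts.

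A further 11 probes outside the value table carry the symbol of a member and were not used by the rule. Of these, 8 had a positive gap, with 7 of them well above background in both brain tissues. The second probes of Snap47 (1110031B06Rik) and Soga3 (6330407J23Rik) had gaps of 1.54 and 1.54 on the log2 scale, close to the 1.45 and 1.29 of the member probes. The second probe of Adam23 had a gap of 0.79 and stood at -2.25 and -1.84 in eyes. The second probe of Aatk had a gap of 0.42 with liver as the next tissue. Those of Ppp4r4 (8430415E04Rik), Smim10l2a (6330419J24Rik) and Iffo1 (A930037G23Rik) had gaps of 1.16, 0.84 and 0.65, and that of Asic1, well above background in 1 brain tissue, 0.49. Those of Adam22 and Elapor2 (9330182L06Rik) were not well above background in brain, with gaps of -0.18 and -0.20. The second probe of Kifbp (2510003E04Rik), well above background in both brain tissues, had a gap of -0.22 with eyes highest, so 2 probes of that gene disagreed.

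RefSeq promoters of 300 bases (GRCm38.p6, 250 before to 50 after a start site) were found for 108 member genes, 145 promoters in all. Their median GC share was 60.3%, and the ratio of observed to expected CpG was 0.67, against 52.7% and 0.38 over all 32851 promoters. For protein-coding genes alone the medians were 60.7% and 0.66 against 56.3% and 0.57. The TATA box TATAAA was found on either strand in 3.45% of the member promoters and 13.6% of all, and the cyclic AMP response element TGACGTCA in 4.83% and 1.79%. The response element was in 7 promoters of only 5 member genes, as overlapping promoters of a gene can hold the same match. By gene its shares were 4.63% and 2.03%. The 2 arms of RE1, the site of the neuronal repressor REST, were rare. TTCAGCACC was in 0.69% of member promoters and 0.37% of all, at Cntnap5b alone. GGACAGCG was in 2.76% and 1.26%, at Sertm1, Abhd8, Lrp11 and Adcy3. Both strands were searched, no motif is part of another, and a match is a description of letters and not a site.

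Bases upstream of the start site are shown for 5 members, 5′ to 3′ on the strand of the gene. Mir9-3hg is shown for the cyclic AMP response element 51 bases before the start, Nppc, the precursor of C-type natriuretic peptide, for a TATA box 29 bases before it, and Sertm1, Adcy3 and Abhd8 for the right arm of RE1. Capitals mark those matches, which in Abhd8 lies on the opposite strand and reads CGCTGTCC.
Mir9-3hg chr7:79499776-79500025 (+): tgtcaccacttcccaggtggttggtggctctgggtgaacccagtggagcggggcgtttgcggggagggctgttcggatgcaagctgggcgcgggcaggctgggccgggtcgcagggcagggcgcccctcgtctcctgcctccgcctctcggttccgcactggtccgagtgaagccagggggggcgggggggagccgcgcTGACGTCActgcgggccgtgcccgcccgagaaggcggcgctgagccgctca
Nppc chr1:86670574-86670823 (-): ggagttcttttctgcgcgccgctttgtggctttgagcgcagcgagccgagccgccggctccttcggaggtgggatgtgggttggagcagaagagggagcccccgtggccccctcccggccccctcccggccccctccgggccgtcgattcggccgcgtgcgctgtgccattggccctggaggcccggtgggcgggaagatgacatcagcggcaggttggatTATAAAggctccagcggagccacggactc
Sertm1 chr3:54915888-54916137 (-): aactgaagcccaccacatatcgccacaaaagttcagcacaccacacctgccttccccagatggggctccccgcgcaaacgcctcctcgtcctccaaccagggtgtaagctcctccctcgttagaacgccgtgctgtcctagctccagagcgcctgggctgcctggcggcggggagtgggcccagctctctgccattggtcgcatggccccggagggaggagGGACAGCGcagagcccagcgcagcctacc
Adcy3 chr12:4133147-4133396 (+): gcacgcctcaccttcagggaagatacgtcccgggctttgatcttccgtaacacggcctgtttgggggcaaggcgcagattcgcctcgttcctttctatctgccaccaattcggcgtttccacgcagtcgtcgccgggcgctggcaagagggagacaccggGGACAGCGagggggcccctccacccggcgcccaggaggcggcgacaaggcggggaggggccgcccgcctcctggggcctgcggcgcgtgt
Abhd8 chr8:71463658-71463907 (-): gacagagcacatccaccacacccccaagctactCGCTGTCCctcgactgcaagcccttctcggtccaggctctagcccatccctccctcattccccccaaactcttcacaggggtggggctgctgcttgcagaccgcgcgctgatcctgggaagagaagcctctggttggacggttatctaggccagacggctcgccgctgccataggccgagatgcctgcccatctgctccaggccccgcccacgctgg
The 5 genes did not behave alike in brain. Sertm1 was called higher in cortex, whereas Adcy3 and Abhd8 differed between cortex and cerebellum by less than the limit. Nppc stood at 1.82 and 1.75 in cortex and 2.27 and 2.27 in cerebellum, with one high array outside brain, skin 2 at 1.31.

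The threshold of the rule ran through a dense range. The 3 members just inside it were Appbp2, Plcl1 and 5430400D12Rik with gaps of 1.60-fold, 1.60-fold and 1.59-fold, and the 3 named probes just outside were Sf3b1, Aifm3 and Mphosph8 with 1.59-fold, 1.58-fold and 1.56-fold. The median gap of the members was 2.19-fold in the value table and 1.91-fold on loess ratios, on which 2 members had no positive gap. Symbols were at hand for 22.5% of the table, and 762 probes without one had a gap at least as large as the smallest member gap. Of the members, 36.2% lay on chromosome 1, against 18.4% of the named probes, and 61.7% had a symbol that starts with A or a digit, against 56.4%.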

How the data were processed

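The 30 arrays (15 tissues, 2 each) were scanned with 43451 spots. Per the file headers, the authors extracted spot values with Feature Extraction 9.5.1.1 and deposited, for each array, mean and processed signal intensity in both dyes. The deposited value table holds, for 25030 probes, a log10 Cy3 level less the deviation of a probe's Cy5 signal from its mean over arrays. This was found from the processed signals of 11667 bright probes, on which its slopes were 0.998 for Cy3 and -0.997 for that deviation. The table was therefore used as levels in which a higher value is more tissue RNA, and the authors' steps beyond this are not given in the sources used here.

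Mean signals were background corrected by normexp (offset 50) and normalised by loess within arrays in limma 3.58.1 (R 4.3.3), after 475 outlier spots (0.0377%) were removed. Spots of a probe were averaged. No spot was saturated, and 53.9% to 76.9% of spots were well above background in Cy3. A probe was tested if it was well above background in Cy3 on both arrays of at least 1 tissue (21026 probes). One model with a coefficient for each tissue was fitted to all arrays (15 residual degrees of freedom). Calls were two-sided and needed a Benjamini-Hochberg adjusted p below 0.05, over all probes tested, and an absolute log2 difference of 1 or more. The test was checked on simulated data. P-values measure the spread between 2 arrays of a tissue, pooled over all 15 tissues and moderated by limma. They do not measure the spread of the cortex and cerebellum arrays alone. The pool includes fat and bone, for which the study's description gives a single replication.

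Brain and eyes were also compared on the Cy3 level. "At least N-fold" values compare log2 Cy3 levels, per channel after loess and quantile normalisation of array averages (Aquantile) and open to dye bias as dyes were not swapped, with the higher of the dim probe's own level and the lowest level among probes well above background. Symbols came from the study's probe lists and were updated through RefSeq (GRCm38.p6): 82 were current, 55 were synonyms and 12 had no single match. Named were the 10 members with the largest gaps, called members, members on the role lists, those at the threshold, the 4 highest and 4 lowest against eyes, those with a second probe and those with an RE1 match in the promoter. Nppc, 6330403K07Rik, Cerox1, Snhg11, Kcnmb4os2, Smc2os, Zfp85os and Tcaf1 fall outside this rule and were named after their values were seen. Members and lists were chosen with earlier results of these data known. In all 22 alternatives were planned, and 3 were added after the data were seen.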

Additional observations from a re-analysis of the deposited data

How the results depend on the processing

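Against 8 members called towards cortex, the count was 1 on processed signals, 2 on the deposited value table and 16 with no limit on the difference. In alternatives chosen after seeing the data, the 4 cortex and cerebellum arrays alone gave 5 on processed signals and 6 on the deposited value table. Against 3 called towards cerebellum, it was 1 with median centring, 1 with a fixed slide block and 12 where the difference had no limit. Leaving out 1 array gave 8 to 10 calls towards cortex and 0 to 6 towards cerebellum, with 0 without cortex array 2. Those fits leave 1 array in a tissue, so their spread comes only from the tissues that keep 2 arrays. The cause of the changed counts was not tested. Median centring moved the median of all probes to 0.10 and processed signals to -0.09 on the log2 scale. With a replicate block the counts were 8 and 3. The replicate numbers are not said to pair the samples, and same-numbered arrays deviated together with a correlation of 0.22 over probes. With slide as a random block the counts were also 8 and 3, and the estimated correlation within a slide was 0.69. The main model treats arrays of the same slide as independent, which limits its p-values. The rule on loess ratios shared 117 members, and on the Cy3 level alone 100. Eyes was the highest other tissue for 75 to 92 members under the alternatives tried.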
